A study of Mus musculus with 384 samples.

Results

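This report describes 10 genes of the canonical Wnt pathway in single mouse pluripotent stem cells: the Axin scaffolds Axin1 and Axin2, the tankyrases Tnks and Tnks2, beta-catenin (Ctnnb1), the DNA-binding factors Lef1, Tcf7, Tcf7l1 and Tcf7l2, and the target gene Sp5. They were taken by name, through the Ensembl identifiers of the count table, from 31617 genes, and all 10 were found. Cells came from 4 lines, all grown in N2B27 medium on fibronectin. The lines 5ar1 and 5ar2 are formative stem (FS) cells, derived from epiblast before gastrulation and kept in AloXR, which the labels call A3XR: a low dose of activin with the tankyrase inhibitor XAV939 and with BMS493, an inverse agonist of retinoic acid receptors. AFX6 is a line of epiblast-derived stem cells (EpiSCs), a primed pluripotent type, in AFX: activin, Fgf2 and XAV939. AF32 is an EpiSC line in AF, with activin and Fgf2 and without XAV939. The labels give no genotype for these lines. The comparison asked how the 10 genes differed between the line without XAV939 and the 3 lines with it. AF32 is the only line in AF, so the line and the medium cannot be told apart.

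In canonical Wnt signalling, beta-catenin is bound in the cytoplasm by a destruction complex built on Axin, phosphorylated and degraded. A Wnt signal stops this, and beta-catenin then enters the nucleus, where it binds Tcf/Lef factors at their target genes. Tankyrases mark Axin with poly(ADP-ribose) for degradation, so an inhibitor such as XAV939 stabilises Axin protein and dampens the response. This step acts on protein and is not read by mRNA counts. In the post-implantation epiblast, Wnt signalling is known for its part in forming the primitive streak.

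Promoter sequence is shown for the members best known as direct targets of beta-catenin, Axin2 and Sp5. Each run is the 250 bases before the annotated start, from RefSeq on GRCm38.p6, written 5′ to 3′ on the strand of the gene. Axin2 (chr11:108920099-108920348, plus strand) and Sp5 (chr2:70474673-70474922, plus strand) are given in turn. Capitals mark matches to the Tcf/Lef motif, searched as CTTTGAA or CTTTGAT or CTTTGTA or CTTTGTT on both strands.
Axin2: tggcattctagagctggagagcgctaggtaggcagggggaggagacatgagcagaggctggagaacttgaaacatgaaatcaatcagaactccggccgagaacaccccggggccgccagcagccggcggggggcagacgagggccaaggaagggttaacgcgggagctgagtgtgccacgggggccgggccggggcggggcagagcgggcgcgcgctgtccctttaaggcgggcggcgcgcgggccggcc
Sp5: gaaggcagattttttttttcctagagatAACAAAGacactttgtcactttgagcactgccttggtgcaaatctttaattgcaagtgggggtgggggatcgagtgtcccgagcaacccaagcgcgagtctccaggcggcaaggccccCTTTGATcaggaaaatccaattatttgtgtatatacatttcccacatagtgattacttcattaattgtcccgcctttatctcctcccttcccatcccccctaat
The Sp5 window held 2 matches. The first, AACAAAG, starts at -222 from the gene start and is read on the other strand. The second is CTTTGAT at -104 on the strand of the gene. The RefSeq table held 14 windows of 300 bases, from 250 before to 50 after a start, for 8 of the 10 members, and not for Axin1 and Tnks. A match was present in 3 of these 14 windows, against 16.9% of all 32851 windows. The other matches lay in 1 window of Lef1 (TACAAAG at -147) and in 1 of Tcf7l2 (CTTTGTT at -14). A match is a description of the letters and not a binding site.

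Smart-seq2 libraries of 384 cells, 96 per line, were deposited as counts of reads per gene, without molecular identifiers. The 326 cells with at least 3000000 counts were used: 90 of 5ar1, 90 of 5ar2, 66 of AFX6 and 80 of AF32, with medians of 4811004, 4835258, 5069883 and 4401633 counts. Levels are given as CPM, the counts of a gene per 1000000 counts, from counts summed over the kept cells of a line unless a single cell is named. Cells of a line are not replicates of a medium. Intervals of folds cover counting error only and treat reads as independent, while intervals of shares cover the sampling of cells only. Neither covers differences between lines. The label of pluripotent cells was checked by Pou5f1, which lay between 490 and 644 CPM in the 4 lines. Sox2 had 12.7 CPM in AF32, against 17.4 in 5ar1, 17.5 in 5ar2 and 4.88 in AFX6, where 43.9% of cells had a count, and Nanog had 400 CPM in AF32, against 28.5, 33.5 and 159 CPM in the others in the same order. The summed level of 3 naive markers was at most 3.68 CPM, and Fgf5, a gene of post-implantation epiblast, was at 229 and 272 CPM in FS cells and at 30.7 and 44.9 CPM in AFX6 and AF32. The 5 primitive streak and mesoderm markers summed to 61.7 and 50.3 CPM in 5ar1 and 5ar2, nearly all Eomes. They summed to 7.87 CPM in AFX6 and to 46.7 CPM in AF32, mostly T, of which 1 cell held 99.1% of the counts. The median over cells of this sum was 45.0, 29.3, 0.22 and 0.20 CPM in 5ar1, 5ar2, AFX6 and AF32. The 3 neural markers summed to between 2.4 and 8.80 CPM and the 5 endoderm markers to between 0.01 and 8.76 CPM. The 4 fibroblast markers summed to between 7.57 and 40.7 CPM. The highest fibroblast sum, in 5ar2, was mostly Col1a1 (27.7 CPM), with 82.8% of its counts in 1 cell.

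Axin1, the constitutive scaffold of the destruction complex (chromosome 17, 26138688 to 26195811 on GRCm38), had 14.6 CPM in AF32, against 11.5 in 5ar1, 6.6 in 5ar2 and 8.63 in AFX6. AF32 was thus above the 3 lines in XAV939, by 1.3-fold over the nearest of them, 5ar1. A count was found in 53.3% of 5ar1 cells, 52.2% of 5ar2 cells, 33.3% of AFX6 cells and 46.3% of AF32 cells, so the order of the shares was not that of the CPM. Axin1 was read in few cells at high level: the upper quartile over cells was 20.6 CPM in 5ar1 and 0.79 in AF32, and the 5 highest of the 80 AF32 cells held 50.2% of its counts. By medians over cells the log2 difference between AF32 and the mean of the 3 lines was -0.17, where summed counts gave 0.69.

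Axin2, a scaffold that is itself a widely used target gene of beta-catenin (chromosome 11, 108920349 to 108950783), was low in every line, with 2.5 CPM in AF32, against 2.7 in 5ar1, 1.1 in 5ar2 and 2.7 in AFX6. The level in AF32 lay inside the range of the 3 lines in XAV939. Its ratio to AFX6 was 0.948, with a 95% counting interval of 0.864 to 1.04. Axin2 had a count in 25.6% of 5ar1 cells, 16.7% of 5ar2 cells, 22.7% of AFX6 cells (exact Clopper-Pearson interval 13.3% to 34.7%) and 23.8% of AF32 cells (14.9% to 34.6%). The AFX6 value rested on few cells, since the 5 highest of 66 held 94.3% of its counts and 1 cell held 49.0%. At 3000000 counts per cell after thinning, the shares were 24.4%, 15.6%, 19.7% and 22.5% in the same order.

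Tankyrase mRNA was present in nearly every cell. Tnks2 (chromosome 19, 36834232 to 36893477) had 114.8 CPM in AF32, against 106.5 in 5ar1, 90.2 in 5ar2 and 112.6 in AFX6, with a count in 100% of the cells of each line. AF32 and AFX6 differed by 1.02-fold. Tnks (chromosome 8, 34826460 to 34965690) had 53.7 CPM in AF32, against 36.7 in 5ar1, 21.8 in 5ar2 and 51.2 in AFX6. AF32 was the highest line for both tankyrases, by 1.05-fold over AFX6 for Tnks. Per kilobase of merged exons, Tnks2 made up 80.6%, 85.5%, 75.9% and 75.3% of the tankyrase level of 5ar1, 5ar2, AFX6 and AF32.

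Ctnnb1, which encodes beta-catenin (chromosome 9, 120929216 to 120960507), was the member with the highest level per exon length, 60.1 to 80.7 CPM per kilobase. It had 419 CPM in AF32, against 367 in 5ar1, 312 in 5ar2 and 325 in AFX6. AF32 was the highest line, by 1.1-fold over 5ar1 and 1.3-fold over AFX6. Single AF32 cells ranged from 2.9 to 1038 CPM around a median of 375.

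Tcf7, which encodes Tcf1, a factor that activates targets with beta-catenin (chromosome 11, 52252371 to 52283014), had 42.2 CPM in AF32, against 17.3 in 5ar1, 11.2 in 5ar2 and 18.4 in AFX6. The 3 lines in XAV939 had a mean of 15.6 ± 3.85 CPM (SD, n = 3). AF32 was above each of them, by 2.4-fold over 5ar1, 3.75-fold over 5ar2 and 2.3-fold over AFX6 (counting interval 2.2 to 2.4). The median over cells was 29.8 CPM in AF32 and 7.35, 1.4 and 2.7 in 5ar1, 5ar2 and AFX6. A count was found in 82.5% of AF32 cells, against 82.2% in 5ar1, 70.0% in 5ar2 and 80.3% in AFX6. Of the 80 AF32 cells, 31 (38.8%) were above 42.2 CPM, the 90th percentile over the 246 cells of the other lines; this count was 9 of 90 in 5ar1, 4 of 90 in 5ar2 and 12 of 66 in AFX6.

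**Figure D1:**
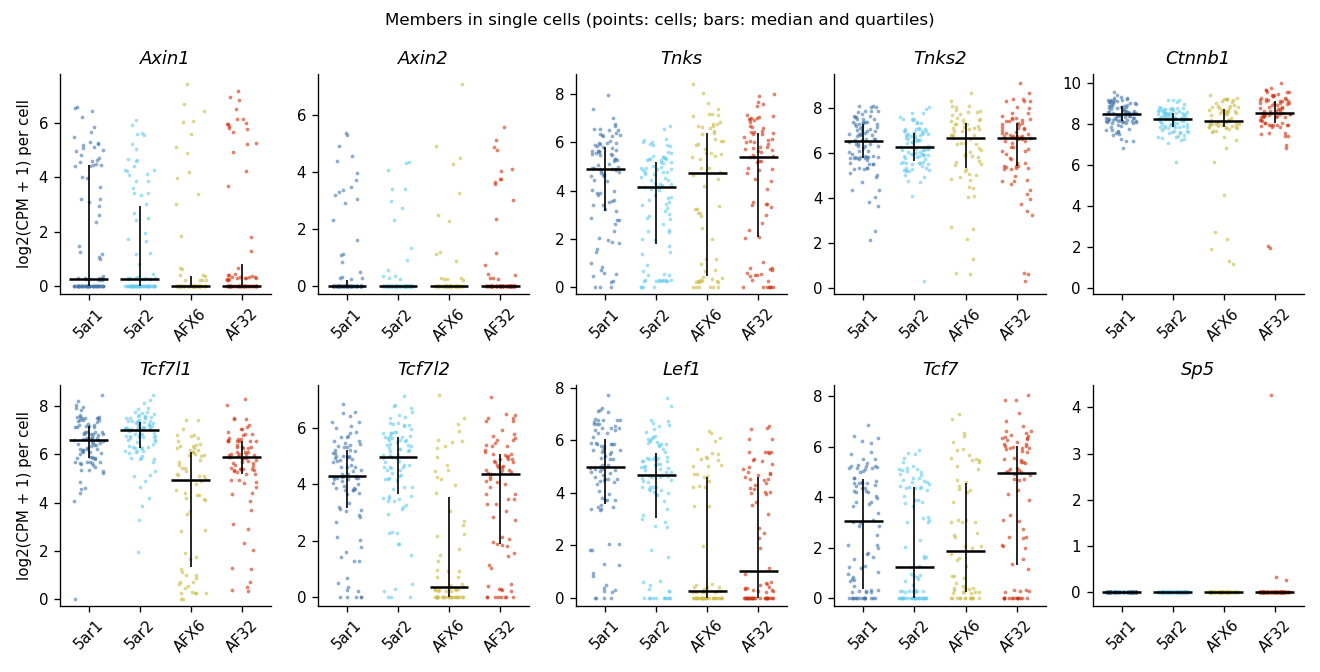
Level of each of the 10 genes in single cells, as log2(CPM + 1), by line; points are the 326 kept cells, horizontal bars medians and vertical bars quartiles. Tcf7 has its highest median in AF32 (29.8 CPM), Lef1 has medians of 30.3 and 24.4 CPM in the FS lines and of 0.19 and 1.02 CPM in AFX6 and AF32, and Sp5 is at 0 in all but 3 AF32 cells.

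The other Tcf/Lef factors did not follow that order. Tcf7l1, also called Tcf3, is the main repressor of the family in pluripotent cells (chromosome 6, 72626378 to 72789254). It had 68.2 CPM in AF32, against 109.2 in 5ar1, 125.9 in 5ar2 and 40.4 in AFX6, so both FS lines were above both EpiSC lines. Lef1, an activator (chromosome 3, 131110471 to 131224356), had 14.2 CPM in AF32, against 45.5 in 5ar1, 33.5 in 5ar2 and 13.4 in AFX6. The EpiSC lines differed by 1.06-fold with and without XAV939, while 5ar1 and 5ar2 were 3.20-fold and 2.4-fold above AF32. Tcf7l2, which can activate or repress (chromosome 19, 55741820 to 55933654), had 24.9 CPM in AF32, against 25.8 in 5ar1, 35.0 in 5ar2 and 11.0 in AFX6. AFX6 was the lowest line for Tcf7l2, with a count in 65.2% of its cells against 90.0% to 96.7% in the others.

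Sp5, a transcription factor gene induced directly by beta-catenin (chromosome 2, 70474923 to 70477729), was close to absent. No count was found in the 90, 90 and 66 kept cells of 5ar1, 5ar2 and AFX6, which allows a share of cells of up to 3.33%, 3.33% and 4.55% by a limit of 3 cells of the total; the exact two-sided Clopper-Pearson upper bounds are 4.02%, 4.02% and 5.44%. AF32 had 80 counts in 3 of 80 cells (3.75%, exact interval 0.780% to 10.6%), and 78 of them were in 1 cell at 18.3 CPM. No fold is given for Sp5, since its value rested on that cell. That cell had 61.3 CPM of Tcf7 and 0 of Axin2.

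Across all 26264 genes tested with edgeR's quasi-likelihood test on counts summed per line, AF32 against the 3 lines in XAV939, 0 of the 10 members passed a Benjamini-Hochberg adjusted p of 0.05 with an absolute log2 fold change of 1.4. The background was the same: 0 genes (0%) passed in either direction. At an unadjusted p under 0.05 there were 1726 genes, 3.27% of all higher and 3.30% lower in AF32, and 1 member, Tcf7, whose fitted log2 fold change was 1.408 with a standard error of 0.42 (edgeR p = 0.0259, adjusted p = 0.738, range 0.098 to 1.00 over the alternatives). AF32 is a single line and was assumed to vary like the others. An exact permutation of the 4 lines could not give a p under 0.25. DESeq2 on the same sums called 1439 genes and 0 members, and limma called 0 of either. Changed genes were found in simulated data at a low dispersion of 0.05 (152 of 199 at 4-fold and 190 of 195 at 16-fold), but not at 1.1, the common dispersion of these 4 lines (0 of 196 and 0 of 197).

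Described by size alone, Tcf7 was the only member in AF32 at least 2-fold outside the range of the 3 lines in XAV939, among the 8 members with at least 5 CPM in a line. Of all 11728 genes with that level, 4.47% were above and 3.05% below the range by 2-fold. AF32 was above all 3 lines by any size for 5 of the 8 (Axin1, Tnks, Tnks2, Tcf7 and Ctnnb1) and below for 0, as were 3780 (32%) and 2563 (22%) of all 11728 genes. Between the EpiSC lines, AF32 was at least 2-fold above AFX6 for 2 of the 8, Tcf7 and Tcf7l2 (2.3-fold, counting interval 2.2 to 2.4), against 13.8% of all genes, and 0 were 2-fold below, against 8.94%. With all 384 cells the 2 were Axin1 and Tcf7, and with at least 4000000 counts per cell the 3 were Axin1, Tcf7 and Tcf7l2. Tcf7l1 and Axin1 were each 1.7-fold higher in AF32 than in AFX6. For Tcf7l2 and Tcf7l1 the level in AF32 was below both FS lines, which were also grown in XAV939.

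**Figure D2:**
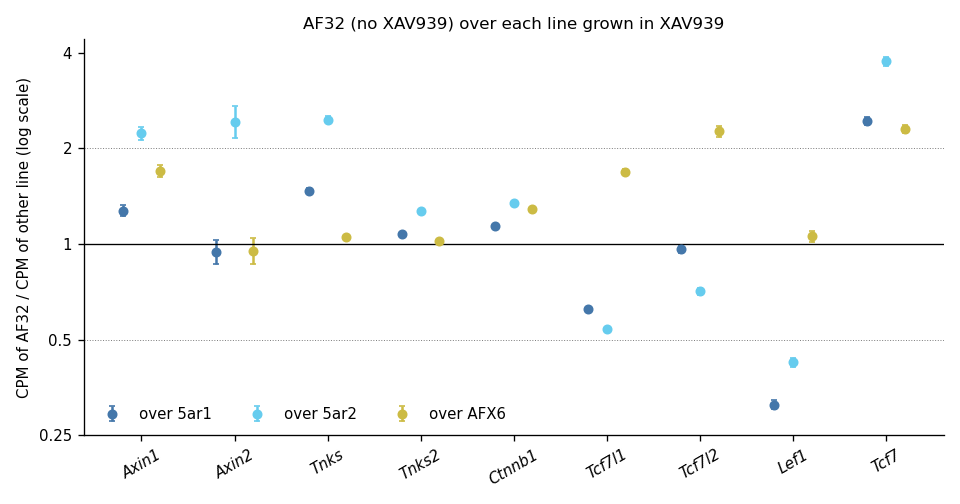
CPM of AF32 divided by the CPM of each line grown in XAV939, on a log scale, for the 9 members other than Sp5; bars are 95% counting intervals and dotted lines mark 2-fold. Tcf7 is the member for which all 3 ratios exceed 2 (2.3 to 3.75); the ratios of Lef1, Tcf7l1 and Tcf7l2 to the FS lines lie under 1 while those to AFX6 lie above 1.

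Set side by side as cell types, FS lines and EpiSC lines did not overlap for 6 of the 8 members. Lef1 was higher in FS cells, with 39.5 ± 8.48 CPM against 13.8 ± 0.55 (SD, n = 2 lines each, 2.9-fold), and was the only member for which both FS lines were at least 2-fold above both EpiSC lines, as were 327 (2.8%) of all 11728 genes; 0 members were 2-fold below, as were 460 (3.9%). Tcf7l1 (117.5 ± 11.8 against 54.3 ± 19.6 CPM) and Tcf7l2 (30.4 ± 6.5 against 17.9 ± 9.81) were also above in both FS lines. Tnks, Tnks2 and Tcf7 were below in both. Over all genes, 26.1% were above and 27.6% below by any size. With 2 lines against 2, an exact permutation test cannot go under p = 0.333.

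The makeup of the Tcf/Lef family differed between lines. Per kilobase of merged exons, which can overstate the length of the transcripts in use, the 4 factors summed to 37.9 CPM in AF32, against 42.5 in 5ar1, 44.2 in 5ar2 and 20.1 in AFX6. Tcf7l1 was 65.4% and 72.6% of this in the FS lines, 51.3% in AFX6 and 45.8% in AF32. The share of Tcf7 was 42.4% in AF32, 34.9% in AFX6, 15.5% in 5ar1 and 9.70% in 5ar2. In AF32 the repressor Tcf7l1 and Tcf7 were thus at near-equal level per length, 17.4 and 16.1 CPM per kilobase, where 5ar2 had 32 and 4.28. Lef1 was 4.27% of the family in AF32 and 12.2% in 5ar1.

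**Figure D3:**
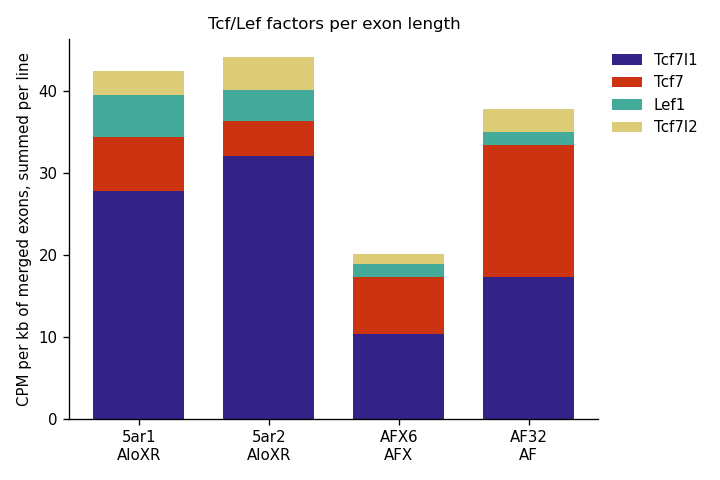
Level of the 4 Tcf/Lef factors per kilobase of merged exons, stacked for each line with its medium. Tcf7l1 is the largest share in every line, and the Tcf7 share is 42.4% in AF32 against 34.9% in AFX6 and 15.5% and 9.70% in the FS lines.

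Cells of AF32 carried signs of raised expression over whole chromosomes, and several members lie on them. For each cell, the mean relative level of the genes of a chromosome, without the member, was divided by the median over the autosomes, and ratios above 1.2 were counted. For chromosome 11, with Tcf7 and Axin2, 66 of 80 AF32 cells were above, against 11 of 90 in 5ar1, 0 of 90 in 5ar2 and 8 of 66 in AFX6, with Tcf7 left out of the ratio. Tcf7 had 43.1 CPM in those 66 cells and 37.8 CPM in the 14 other AF32 cells. In 5ar1 it had 34.2 CPM in the 11 cells above and 15.0 CPM in the 79 others. In AFX6 it had 18.3 CPM in the 8 cells above and 18.4 CPM in the 58 others. All Axin2 counts of AF32 fell in cells above the limit (Axin2 0 CPM in the 14 others), but only 19 of the 80 cells had a count. In cells above and not above, Axin2 had 0.93 and 2.9 CPM in 5ar1, and 2.5 and 2.7 CPM in AFX6. For chromosome 8, with Tnks, 41 of 80 AF32 cells were above and 0 in the other lines. Tnks had 74.6 CPM in these 41 cells (median 64.1) and 31.7 CPM in the other 39 (median 19.9), the latter under the 51.2 CPM of AFX6. For chromosome 19, with Tnks2 and Tcf7l2, 52 of 90 cells of 5ar2 and 18 of 80 of AF32 were above. Tcf7l2 had 43.4 against 23.4 CPM in 5ar2, and 38.2 against 21.0 CPM in AF32, in cells above and not above. Tnks2 had 103.1 against 72.5 CPM in 5ar2 and 135.8 against 108.7 CPM in AF32. The part of the raised chromosomes in the levels of Tcf7, Tnks, Tnks2, Tcf7l2 and Axin2 was not tested.

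**Figure D4:**
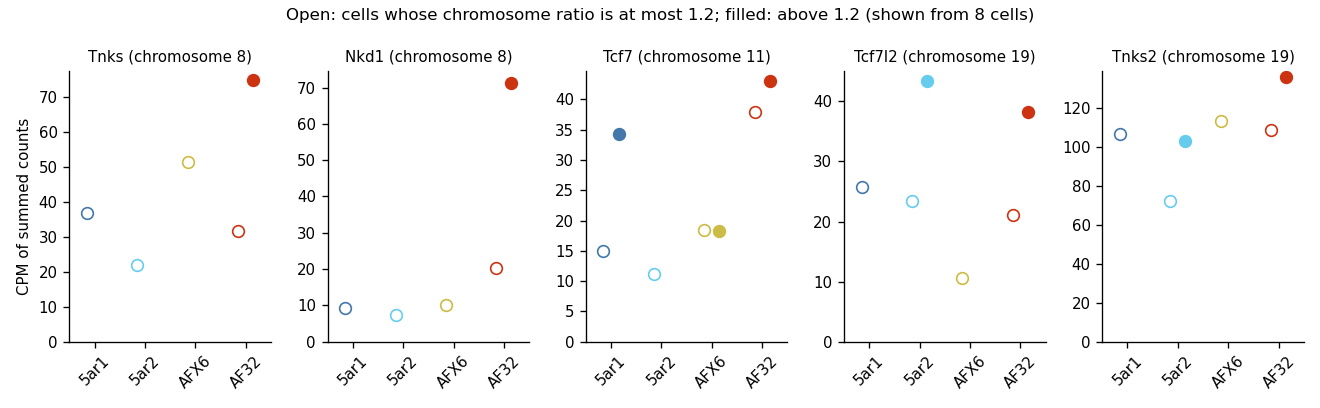
CPM of 5 genes in cells whose chromosome ratio was at most 1.2 (open) or above 1.2 (filled, from 8 cells), by line; the chromosome is named above each panel. In AF32, Tcf7 is at 37.8 and 43.1 CPM in the cell sets not above and above, Tnks at 31.7 and 74.6, and Nkd1 at 20.3 and 71.3.

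Other genes of the pathway were read from 6 lists, and where 4 values follow each other they stand for 5ar1, 5ar2, AFX6 and AF32. Of 18 Wnt feedback and target genes, 16 were in the table. Of the 11 with at least 5 CPM, 3 were at least 2-fold above the range in AF32: Nkd1, Sp8 and T. Over all 11728 genes with that level, 4.47% were above by 2-fold. Sp8 and T reached 5 CPM in AF32 alone, so the filter itself placed them there, as for 379 of all 11728 genes. Nkd1, a feedback inhibitor that binds Dishevelled (chromosome 8), had 46.4 CPM in AF32, against 9.19 in 5ar1, 7.24 in 5ar2 and 10.2 in AFX6, 4.55-fold over AFX6. It had 71.3 CPM in the 41 AF32 cells with a raised chromosome 8 and 20.3 CPM in the 39 others; how far the raised chromosome bears on the level of Nkd1 was not tested. Sp8, a factor related to Sp5, had 0.44, 1.4, 0.33 and 6.5 CPM in 5ar1, 5ar2, AFX6 and AF32, with a count in 46.3% of AF32 cells against 6.06% to 20.0% in the other lines. T (brachyury), the primitive streak gene, had 0.14, 0.18, 0.38 and 39.1 CPM, but only 2 of the 80 AF32 cells were at 5 CPM or above, 1 cell held 99.1% of its counts, and the other 78 summed to 0.05 CPM.

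Without these 2 T cells, Tcf7 in AF32 was at 42.6 CPM and Axin2 at 2.6 CPM. The median log2 difference, AF32 minus the mean of the 3 lines, was 0.45 over all 16 targets in the table and 0.26 over all 10 members, with no filter on low values, against -0.0073 over the 30577 genes with a count and 0.08 over the 11728 with at least 5 CPM. By edgeR, fitted log2 fold changes in AF32 were 2.4 for Nkd1, 3.5 for Notum, 9.2 for Dkk1, 3.1 for Sp8 and 7.4 for T. They were -7.1 for Apcdd1, -6.1 for Lgr5 and -2.6 for Ascl2, with Apcdd1 and Lgr5 under 1 CPM in every line. The target list was chosen with earlier results of these data known, and these genes after their values were seen. No test over the list is drawn from them. Notum, a secreted Wnt deacylase, was at 4.29 CPM in AF32 and at 0.29 to 0.46 in the others. It lies on chromosome 11. In AF32 it had 5.14 CPM in the 66 cells with a raised chromosome 11 and 0.13 CPM in the 14 others. The cells of 5ar1, 5ar2 and AFX6 that were not above had 0.34, 0.39 and 0.54 CPM. These AF32 values rested on few cells, with a median of 0 CPM in both sets. Notum was at 5 CPM or above in 4 of the 78 AF32 cells other than the 2 T cells, and in 0 of those 2. Dkk1, a secreted antagonist, was at 1.3 CPM in AF32 and at most 0.003 in the others. Both genes were chosen after their values were seen. Dkk1 was at 5 CPM or above in 1 cell only, which was 1 of the 2 T cells. Some targets were lower in AF32 than in both FS lines, and were named after their values were seen. Ascl2 had 19.1, 20.1, 3.47 and 2.4 CPM in 5ar1, 5ar2, AFX6 and AF32, lowest in AF32. Tnfrsf19 (7.25, 9.58, 1.8 and 2.8 CPM) and Myc (65.6, 75.3, 33.2 and 37.1 CPM) were lower in AF32 than in both FS lines but higher than in AFX6. Of the 11 targets with at least 5 CPM, AF32 was above all 3 lines by any size for 5 and below for 1. Of all 11728 genes, 3780 were above and 2563 below.

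In the destruction complex, 0 of 7 genes lay 2-fold outside the range, against 4.47% of all genes above it and 3.05% below. Fbxw11, a ubiquitin ligase subunit for beta-catenin, had 109.8, 90.9, 78.2 and 142.2 CPM in 5ar1, 5ar2, AFX6 and AF32, Apc 23.9, 16.2, 27.7 and 32, and Amer1 28.3, 24.3, 24.9 and 36.3. AF32 was the highest line for each of the 3. Among 9 cofactors and repressors 0 lay outside the range by 2-fold: Aes, a short relative of the Groucho repressors, had 6.2, 9.46, 39.1 and 44.7 CPM, high in both EpiSC lines, Bcl9 24.5, 41.0, 20.1 and 48.2, and Tle3 29.1, 29.1, 26.1 and 17.6. Among 11 tankyrase partners and substrates 0 did: Amot had 2.8, 5.46, 4.90 and 9.04 CPM, Amotl1 21.7, 21.1, 26.4 and 33, and Terf1, bound by tankyrase at telomeres, 113.9, 136.0, 181.9 and 98.1.

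Of 14 receptors and Dishevelled genes, 1 was 2-fold above and 2 were 2-fold below the range in AF32, against 4.47% and 3.05% of all genes. The receptor Fzd10, which reached 5 CPM in AF32 alone and so passed the filter by its high level there, had 3.86, 0.29, 1.5 and 19.6 CPM, with a count in 57.5% of AF32 cells and 15.6% to 18.2% of the others. Fzd5 had 4.83, 2.09, 6.05 and 0.80 CPM, and Dvl1 10.3, 7.84, 15.9 and 3.16. At an unadjusted p under 0.05, Dvl1, Dvl2 and Fzd4 were lower in AF32. Dvl2, chosen after its values were seen like Fzd4, had 68.9, 55.6, 79.2 and 29.9 CPM, although it lies on chromosome 11, and in AF32 it was at 25.1 CPM in cells with a raised chromosome 11 and at 53.3 CPM in the others. Fzd4 had 0.02 CPM in AF32 and 1.3 to 4.6 in the others.

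Of 5 genes of cadherins and catenins at cell junctions, 1 was 2-fold below the range and 0 above, against 3.05% and 4.47% of all genes. The gene below was Cdh1 (E-cadherin), with 89.6, 54.2, 170.5 and 21.9 CPM. AFX6 was 7.79-fold above AF32. Cdh2 (N-cadherin) had 43.4, 36.6, 13.5 and 38.4 CPM, and Jup (plakoglobin) 76.1, 77.0, 283.6 and 93.1. AFX6 was thus the line that stood apart for Cdh2 and Jup. The 6 lists were chosen with earlier results of these data known, so the counts that follow are no test over a list. Over the 6 lists, 9 of 68 genes tested had an unadjusted p under 0.05 by edgeR, as did 1726 (6.6%) of all 26264 genes, and 0 passed the adjusted p. DESeq2 called 5.48% of all genes and 6 of the lists, which were Nkd1, Notum, Dkk1, T, Fzd4 and Cdh1.

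**Figure D5:**
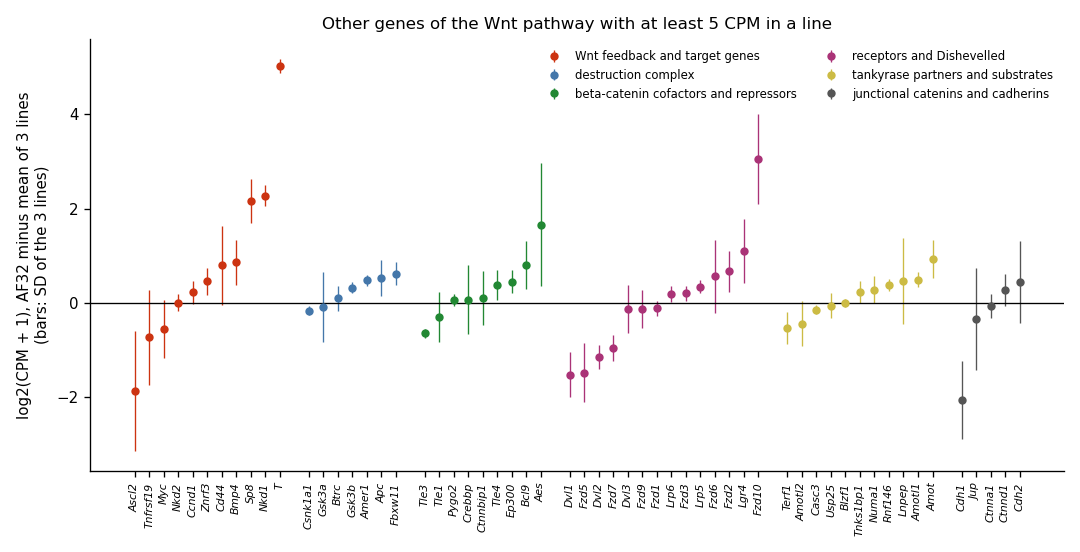
Difference between AF32 and the mean of the 3 lines in XAV939 on the log2(CPM + 1) scale, for the genes of 6 pathway lists with at least 5 CPM in a line; bars are the SD of the 3 lines. Nkd1, Sp8, T and Fzd10 lie highest, and Cdh1, Dvl1 and Fzd5 are below the range of the 3 lines by at least 2-fold; 5 of the 7 genes of the destruction complex lie between 0 and 1.

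Within a line, the members varied from cell to cell with little relation to each other. Over 36 pairs of the 9 members other than Sp5, the median Spearman rho across cells was between 0.025 and 0.054 in the 4 lines. A rho of at least 0.3 in size was seen for 0 pairs in 5ar1 and 5ar2 and for 1 pair each in AFX6 and AF32. In AF32 the pair was Tcf7 and Tcf7l1, with a rho of -0.35 over 80 cells, against 0.19 in 5ar1, -0.13 in 5ar2 and 0.0098 in AFX6. In AFX6 the pair was Lef1 and Tcf7, with a rho of 0.31 over 66 cells. Cells of a line share their culture and library preparation, and these values are a description.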

How the data were processed

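The authors sorted single cells into plates, made Smart-seq2 libraries, aligned paired reads to GRCm38.p6 with STAR 2.7.3a and ran featureCounts 2.0.0 over uniquely mapped reads, on Ensembl annotation. The deposited count table was used. Their second table holds deposited sctransform values, a depth-corrected score, and was used only as an alternative. Smart-seq2 keeps no strand, so reads on the exons that Axin2, Tnks, Lef1, Tcf7l1 and Ctnnb1 share with genes on the other strand cannot be told apart.

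Groups came from the cell line in the labels, and media also from the paper. Cells with at least 3000000 counts were kept (3022666 to 6686007), and 58 were not. The quasi-likelihood test of edgeR 4.0.16, in R 4.3.3, was run on counts summed per line for the 26264 genes left by filterByExpr, with TMM scaling and 2 residual degrees of freedom. DESeq2 1.42.0 and limma 3.58.1, on log2(mean CPM + 1), were alternatives. Folds of summed counts have exact conditional 95% intervals, shares Clopper-Pearson intervals (scipy 1.17.1), and a count of 0 allows up to 3 counts. Chromosome ratios were taken over protein-coding genes averaging 20 CPM or more, each relative to its own mean and limited to 3. Gene positions and exon lengths are from GENCODE M21, whose records matched 31565 genes.

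The members and the lists were chosen with earlier results of these data known. Named were all members, the 3 genes of each list with the largest log2 difference among those with at least 5 CPM in a line, every list gene called, and the 5 genes most like Axin2. Dvl2, Ascl2, Tnfrsf19, Myc, Lgr5 and Apcdd1 were named as well, after their values were seen. The model was tested on simulated data in which every gene had the same dispersion. The result thus does not show what the test could find for a single member. Cdx1, Cdx2, Tle2 and Zfp42 were not analysed here. Nothing says that cells of a line came from separate cultures.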

Additional observations from a re-analysis of the deposited data

How the results depend on the processing

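The numbers of members called (0) and of members outside the range of the 3 lines kept their values, within 1.5 times, in the alternatives except as follows. DESeq2 called 1439 genes over all (263 higher, 1176 lower) and 6 pathway list genes, against 0 and 0. Leaving out a line each in turn gave 1 to 2 members outside the range by 2-fold; the 2 came without AFX6, with Tcf7 higher and Lef1 lower. Without cells with a raised chromosome of the member, 1 member (Tcf7) was 2-fold over AFX6 in place of 2. The count of members 2-fold over AFX6 was 2 with all 384 cells, but with Axin1 and without Tcf7l2, and 3 with Axin1 added in cells with at least 4000000 counts. Fitted log2 fold changes near 0 changed sign for Tcf7l2 (-0.058 with all 384 cells, -0.019 thinned to 1000000 counts, -0.31 to 0.41 with a line left out, the lowest without AFX6) and Axin2 (-0.20 in cells with at least 4000000 counts, -0.11 to 0.43 with a line left out, the lowest without 5ar2). In the fit with 3 groups, AF against AFX, they changed sign for Axin2 (-0.13), Tnks2 (-0.022), Lef1 (0.031) and Tcf7l1 (0.70), since this fit compares AF32 with AFX6 alone. The causes of the other sign changes were not tested. The log2 difference of CPM for Tcf7 was above 0 in 12 of 12 settings (1.2 to 2.9), and that for Tnks turned to -0.12, and for Axin2 to -1.64, without cells with a raised chromosome. Medians over cells turned Axin1 to -0.17 and moved Axin1, Lef1, Tcf7 and Tcf7l2 by more than the SD of the 3 lines. Settings chosen after seeing the data left out the 5 top cells of each line, or cells with little Pou5f1, Sox2 and Nanog, and moved none of these counts by more than 1.5 times. The medians over whole lists with no filter on low values were also added after seeing the data; with the filter they were 0.46 over 11 targets, of which 2 passed it through AF32 alone, and 0.26 over 8 members.

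No paired analysis was possible because the number in a title names a cell of its own line and pairs no cells across lines.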

Other observations

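In 6 of the 326 kept cells Ctnnb1 was under 5 CPM, 4 of AFX6 (1.3 to 4.30 CPM) and 2 of AF32 (2.9 and 3.18 CPM), against medians of 288 and 375 CPM in these lines. These cells, singled out after their values were seen, had 9000 to 10218 genes with a count, against line medians of 10328 and 10330. Sox2 was at most 1.03 CPM in all 6, but its median over cells was also low, 0 CPM in AFX6 and 0.74 CPM in AF32. Pou5f1 was between 289 and 860 CPM in 5 of the 6 cells and 1.99 CPM in 1 of AFX6. The 2 AF32 cells had 232 and 262 CPM of Tcf7, the latter the highest Tcf7 value of any kept cell, and the 4 AFX6 cells had 0 to 0.33 CPM.

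The 58 cells under 3000000 counts were 6 of 5ar1, 6 of 5ar2, 30 of AFX6 and 16 of AF32. Apart from the alternatives with all deposited cells, they entered no comparison above. In their summed counts Tcf7 was at 13.6, 16.7, 26.4 and 14.8 CPM in 5ar1, 5ar2, AFX6 and AF32, so AF32 was not the highest line there, with 427 Tcf7 counts in its 16 cells. Sp5 was at 0 in all 4 lines.

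Over the 80 kept AF32 cells, the genes whose CPM was most like that of Axin2, among 8286 searched, were Trub1, Snx9, Ina, Mtap and Adam15, with a Spearman rho of 0.41 to 0.43. In the 66 AFX6 cells the same genes had a rho of -0.09 to 0.21 with Axin2. Axin2 had a count in 19 of the AF32 cells, so these values are sparse and are given as a description only.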
